A study of Mus musculus with 18 samples.

Results

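The 6 genes described here encode local signals through which progesterone is known to act in the mouse mammary gland, with the receptors of one of them: Tnfsf11, Tnfrsf11a, Tnfrsf11b, Wnt4, Rspo1 and Calca. They were chosen by name, as progesterone-driven paracrine ligands and their receptors, and are 6 of 52489 genes with a count and a symbol. All 6 passed the filter on low counts. They were measured in 18 RNA libraries of sorted mammary cells, 6 from each of 3 populations, from 6 nulliparous MMTV-Cre mice 12 weeks of age. HSL cells, the hormone-sensing or mature luminal cells, were sorted as CD49f-lo/CD61-. AP cells, the alveolar or luminal progenitors, were CD49f-lo/CD61+, and basal cells were CD49f-hi/CD61+. Antibodies to EpCAM and to CD31, CD45 and Ter119, antigens of endothelial and blood cells, were also used in the sort. No treatment was given. Every mouse carried the MMTV-Cre transgene, in which a viral promoter active in mammary epithelium drives Cre recombinase, so no library comes from a mouse without it. The labels name no floxed allele, no strain and no stage of the oestrous cycle.

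In the mouse mammary gland the progesterone receptor sits in a part of the luminal cells, and neighbouring cells without it answer to signals that these cells send. RANK ligand, the product of Tnfsf11, is a TNF family protein that binds the receptor RANK (Tnfrsf11a), which signals through TRAF adaptors to NF-kB. Osteoprotegerin (Tnfrsf11b) is a secreted decoy that keeps RANK ligand from RANK. Wnt4 is a Wnt ligand needed for progesterone-driven side branching, and R-spondin 1 (Rspo1) strengthens Wnt signals by binding LGR receptors and taking the ubiquitin ligases ZNRF3 and RNF43 off the cell surface. Calca encodes calcitonin and, by alternative splicing, the alpha form of calcitonin gene-related peptide (CGRP), and its mammary transcript is known to be induced by progesterone in mice. Counts per gene cannot tell calcitonin from CGRP transcripts.

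On GRCm38, Tnfsf11 (ENSMUSG00000022015) lies on the minus strand of chromosome 14 at 78277445 to 78308043, and Calca (ENSMUSG00000030669) on the minus strand of chromosome 7 at 114631478 to 114636357. Wnt4 (ENSMUSG00000036856) and Rspo1 (ENSMUSG00000028871) lie on the plus strand of chromosome 4, Wnt4 at 137277489 to 137299726 and Rspo1 at 124986430 to 125009099. Tnfrsf11a (ENSMUSG00000026321) lies on the plus strand of chromosome 1 at 105780718 to 105847981, and Tnfrsf11b (ENSMUSG00000063727) on the minus strand of chromosome 15 at 54250619 to 54278484. Of these 6 spans, that of Rspo1 shares 2.56% of its length with another annotated gene and the other 5 share none.

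The promoters of the ligand genes are shown because the results turn on the levels of these 4 genes. Each is the window from 250 bases before to 50 bases after the RefSeq start on GRCm38.p6, written 5′ to 3′ on the strand of the gene, with CG dinucleotides in capitals. For Wnt4 the RefSeq start lies downstream of the gene start given above, 137277489, which falls inside the window. More than the last 50 bases of the Wnt4 window therefore lie within the annotated gene.
Tnfsf11, chr14:78307994-78308293, minus strand: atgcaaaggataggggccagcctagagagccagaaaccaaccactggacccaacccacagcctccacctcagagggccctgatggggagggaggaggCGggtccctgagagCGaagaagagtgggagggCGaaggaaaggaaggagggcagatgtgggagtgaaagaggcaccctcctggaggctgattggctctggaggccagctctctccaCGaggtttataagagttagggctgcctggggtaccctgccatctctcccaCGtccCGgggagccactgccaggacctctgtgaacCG
Calca, chr7:114636308-114636607, minus strand: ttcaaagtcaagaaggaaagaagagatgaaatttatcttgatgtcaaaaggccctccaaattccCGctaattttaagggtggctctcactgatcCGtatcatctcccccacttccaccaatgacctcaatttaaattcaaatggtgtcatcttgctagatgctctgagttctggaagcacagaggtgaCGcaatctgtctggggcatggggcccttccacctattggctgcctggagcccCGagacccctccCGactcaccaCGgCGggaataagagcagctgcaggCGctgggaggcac
Wnt4, chr4:137277385-137277684, plus strand: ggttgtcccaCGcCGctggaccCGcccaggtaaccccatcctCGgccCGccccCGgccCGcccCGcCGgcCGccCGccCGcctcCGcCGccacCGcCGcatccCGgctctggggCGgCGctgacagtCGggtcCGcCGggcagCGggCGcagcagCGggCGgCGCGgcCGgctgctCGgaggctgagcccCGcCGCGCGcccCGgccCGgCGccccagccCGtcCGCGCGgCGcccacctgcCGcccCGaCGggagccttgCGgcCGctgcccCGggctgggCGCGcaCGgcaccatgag
Rspo1, chr4:124986180-124986479, plus strand: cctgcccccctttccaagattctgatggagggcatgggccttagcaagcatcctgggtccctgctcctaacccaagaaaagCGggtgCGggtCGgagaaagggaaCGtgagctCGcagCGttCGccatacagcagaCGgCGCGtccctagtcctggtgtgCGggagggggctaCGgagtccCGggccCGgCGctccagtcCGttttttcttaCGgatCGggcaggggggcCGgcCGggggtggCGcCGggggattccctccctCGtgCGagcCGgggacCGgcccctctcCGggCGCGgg

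The windows of Tnfsf11 and Calca hold 7 and 8 CG dinucleotides, near the median of 7 over 32851 RefSeq promoters of the same length, of which 51.4% hold 7 or fewer and 54.2% hold 8 or fewer. Rspo1 holds 29 and Wnt4 holds 51, and 88.3% and 99.4% of promoters hold as few. The receptor gene Tnfrsf11a, not printed, holds 43, and no window of Tnfrsf11b was matched. The hexamer TGTNCT, recognised by the progesterone receptor and related steroid receptors, was searched on both strands. It occurs in 50.5% of all windows, and among the 5 members matched it occurs in Calca alone, as AGCACA on the printed strand, with its first base at position -75 from the start. The longer palindrome of this hexamer occurs in 0.475% of windows and the oestrogen receptor palindrome in 0.07%, and neither is in the 5 windows. These matches describe letters in a short window and say nothing of binding.

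The labelled populations carried their markers. The 6 basal markers, Krt14, Krt5 and Acta2 among them, were all called lower in HSL and in AP than in basal libraries, by a median of -9.07 on the log2 scale in HSL and -8.24 in AP. All 6 hormone-sensing markers, which include Esr1, Pgr and Foxa1, were higher in HSL than in AP (median 2.3) and than in basal libraries (median 4.54), and all 6 progenitor markers were lower in HSL than in AP (median -3.84). The gene counts summed to between 26516293 and 52404937 in HSL, 37391691 and 62505465 in AP, and 29899462 and 91095830 in basal libraries. Levels are CPM, the counts of a gene scaled to library size with TMM factors. Comparisons used edgeR's quasi-likelihood test with Benjamini-Hochberg adjustment over all genes tested, and a call means an adjusted p under 0.05. Of the 6 pericyte markers 5 were called lower and 1 higher in HSL than in basal libraries, beside 30.6% and 27.8% of all genes. In AP against basal 4 were lower and 1 higher, beside 23.1% and 21.5%. Pdgfrb was at 2.37 CPM in HSL, 9.81 CPM in AP and 37.7 CPM in basal on average. The pericyte markers summed to 77.8 to 155 CPM in HSL, 95 to 207 CPM in AP and 69 to 106 CPM in basal. This sum was mostly Notch3 in HSL and AP, at 103, 115 and 11 CPM on average, and the span of Notch3 is 45.7% shared. The adipocyte sum of 10.5 to 57 CPM in HSL, 25.4 to 119 CPM in AP and 93.4 to 300 CPM in basal was nearly all Fabp4, which endothelial cells also express, while Adipoq averaged 0.0441, 0.104 and 0.138 CPM.

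The 3 libraries of sample 1 stood apart from the other 15, and Calca, Tnfsf11 and Rspo1 were among the genes highest in them. With 0.5 CPM added to both, at least 4-fold above the highest other library of the population were 237 genes (1.44% of those tested) in sample 1 HSL, 171 (1.04%) in AP and 92 (0.559%) in basal, against 0 to 8 genes in any other library. Calca ranked first of all genes tested by this ratio in all 3 populations, at 182 in HSL, 108 in AP and 36.9 in basal. Tnfsf11 ranked 2 in HSL, 2 in AP and 3 in basal, with ratios of 86.8, 27.7 and 12.9. Rspo1 ranked 11 in HSL at a ratio of 17.1, 31 in AP at 8.55 and 217 in basal at 2.85. Wnt4, with ratios of 1.37 in HSL, 0.446 in AP and 1.04 in basal, did not share this. The comparisons of Tnfsf11, Calca and Rspo1 are therefore given with and without sample 1.

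**Figure D1:**
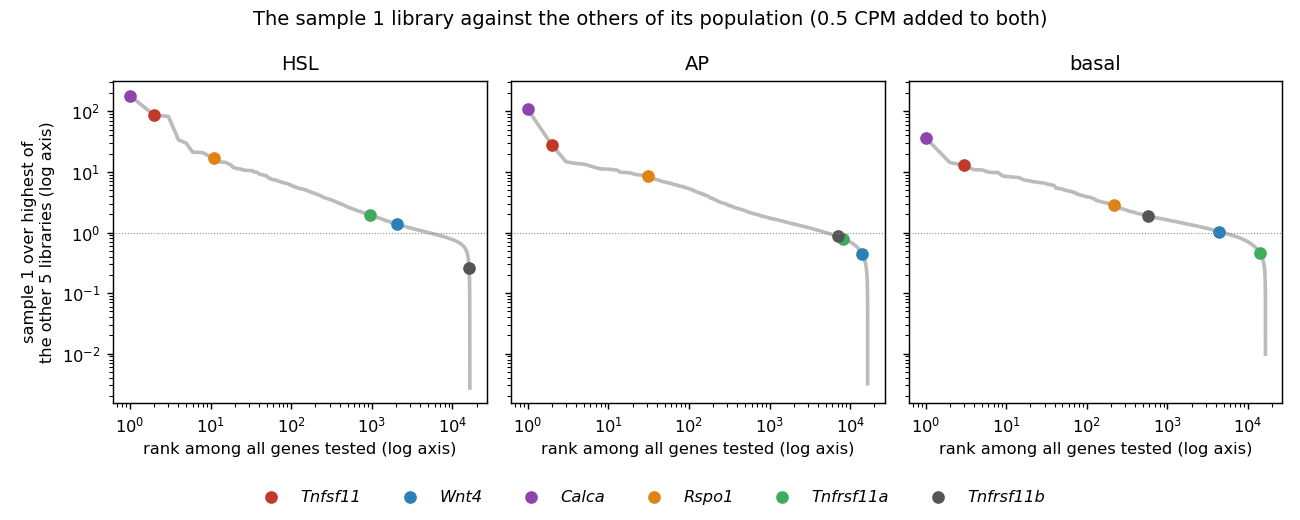
Ratio of the sample 1 library to the highest of the other 5 libraries of its population (log axis, 0.5 CPM added to both) against the rank of the gene by that ratio, for all genes tested (grey line) with the 6 members as points. Calca and Tnfsf11 lie at the top left in HSL, AP and basal, and Wnt4 lies near a ratio of 1 or under it.

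Leukocyte markers were also high in sample 1. Their summed level in the sample 1 library was 50.3 CPM in HSL, 31.6 CPM in AP and 133 CPM in basal, the highest in each population, where the lowest libraries had 0.044, 0.473 and 10.9 CPM. Of the 6 leukocyte markers tested, sample 1 was over 2-fold above the next highest library in 5 in HSL, 2 in AP and 3 in basal. Over all genes tested this held for 8.28%, 5.27% and 3.65%. Of the 8 markers, Csf1r of macrophages was at 25, 8.82 and 77.1 CPM and Ptprc, which encodes CD45, at 17.7, 11.3 and 16.3 CPM in the HSL, AP and basal libraries of sample 1. The B cell gene Cd79a, named after its values were seen, was at 1.25, 2.07 and 11.3 CPM there. Itgam is listed at 0 in all 18 libraries, but its span is wholly shared with another gene, so that this does not show absence. T cells are known to express Tnfsf11, and their receptor genes Cd3e and Cd3g were at 0.547 and 1.29 CPM in sample 1 HSL. The part of these cells in the levels of Tnfsf11, Calca and Rspo1 was not tested.

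RANK ligand transcript was highest in HSL libraries. Tnfsf11 ranged over 0.132 to 592 CPM in HSL (median 2.39), 0 to 55.9 CPM in AP (median 0.609) and 0 to 11.9 CPM in basal libraries (median 0.105), and the top value was that of sample 1 each time. Within a sample number, HSL was above AP and above basal in 6 of 6, and AP was above basal in 4 of 6, both being at 0 in samples 4 and 6. The ranges of the populations overlapped, and did so without sample 1 as well, at 0.132 to 6.33 CPM in HSL, 0 to 1.53 CPM in AP and 0 to 0.468 CPM in basal libraries. As counts, Tnfsf11 had 33567 reads in sample 1 HSL, 2915 in AP and 533 in basal. In samples 4 and 6, which had 6 and 61 reads in HSL, no read was counted in AP or basal, which at 3 counts a library allows up to 0.0473 and 0.0765 CPM in AP and 0.0568 and 0.106 CPM in basal.

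HSL libraries were higher than basal libraries in Tnfsf11 by a log2 fold change of 5.59 ± 2.29 (SE; edgeR adjusted p = 0.0443). Blocked by sample number this was 4.96 ± 0.58 (adjusted p = 5.15e-06), and without sample 1 it was 4.19 ± 1.45 (adjusted p = 0.0191). Leaving out any one of samples 2 to 6 ended the call without the block, with adjusted p between 0.058 and 0.0847. HSL against AP gave 3.37 ± 2.05 (adjusted p = 0.205), AP against basal 2.22 ± 2.00 (adjusted p = 0.393), and neither was called. Blocked by sample number they were 2.67 ± 0.48 (adjusted p = 0.000466) and 2.28 ± 0.60 (adjusted p = 0.00524), so both calls rest on comparing libraries of the same sample. Without sample 1 the blocked test still called HSL against AP (2.75 ± 0.92, adjusted p = 0.0243) and no longer AP against basal (2.28 ± 0.99, adjusted p = 0.0671). The level in AP and basal libraries of sample 1 was 9.44% and 2.02% of that in HSL. In the same libraries the median of the 6 hormone-sensing markers was 13.9% and 3.65% of HSL, with single markers at 10.4 to 20% and 2.18 to 28.2%. In AP of samples 2 to 6 the Tnfsf11 share was 34.7, 24.2, 0, 34.2 and 0%. The marker medians there were 30.1, 25.7, 18.8, 19.4 and 13.6%. In basal, over all 6 samples, the Tnfsf11 share ran from 0 to 9.21% and the marker median from 3.53 to 5.68%. In bulk libraries of sorted cells, fewer cells of a type and less RNA per cell cannot be told apart.

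**Figure D2:**
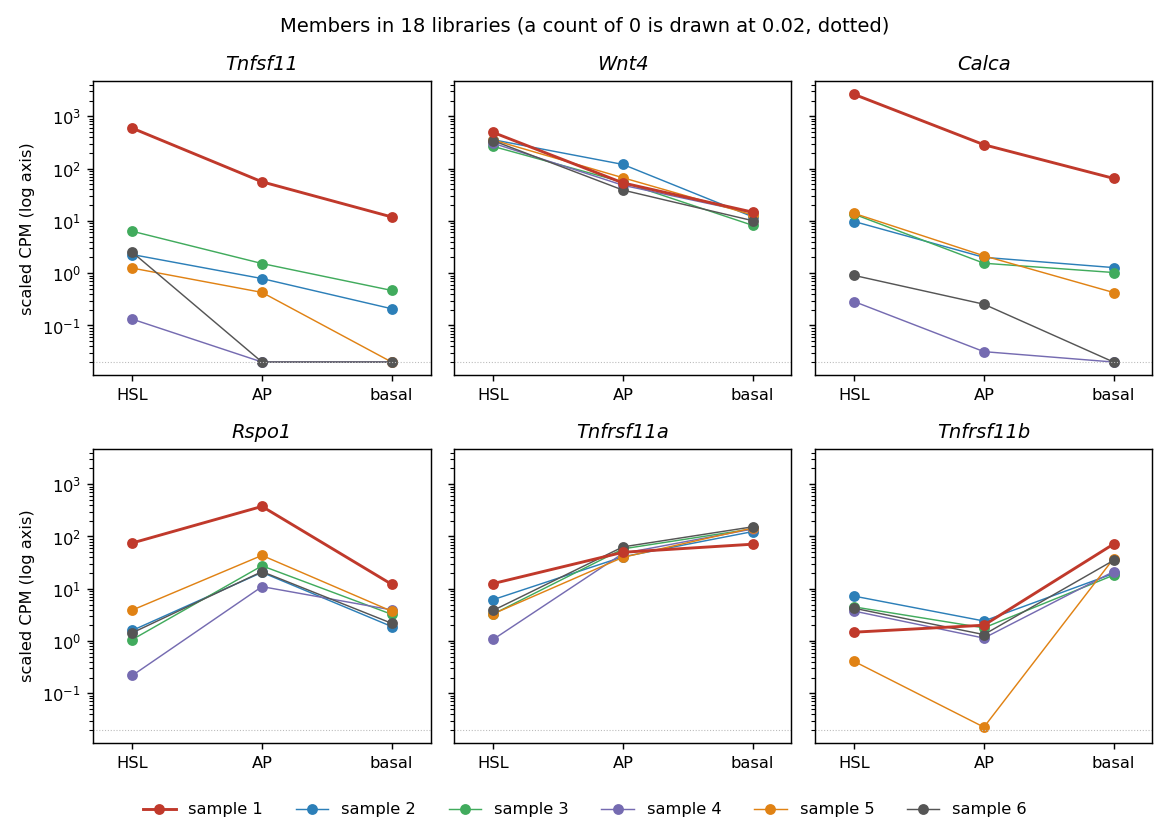
Scaled CPM (log axis) of the 6 members in the HSL, AP and basal library of each of 6 sample numbers, 1 line per sample number, with counts of 0 drawn at 0.02. Sample 1 (thick line) lies above the other 5 in all 3 populations for Tnfsf11, Calca and Rspo1, while the lines of Wnt4 run close together. Those of Tnfrsf11a spread from 1.08 to 12.6 CPM in HSL, with sample 1 highest there and lowest in basal.

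Calca followed the same order, with a median level per kilobase of exon above that of Tnfsf11 in each population. It ranged over 0.286 to 2620 CPM in HSL (median 11.6), 0.0316 to 286 CPM in AP (median 1.78) and 0 to 65 CPM in basal libraries (median 0.73). Within a sample number HSL was above AP and above basal, and AP above basal, in 6 of 6. Samples 2, 3 and 5 had 9.72, 13.4 and 13.9 CPM in HSL, and samples 4 and 6 had 0.286 and 0.905 CPM, so the samples differed over a wide range also apart from sample 1. No comparison was called over all 18 libraries: the log2 fold change was 5.30 ± 2.48 in HSL against basal (edgeR adjusted p = 0.0753), 3.19 ± 2.24 in HSL against AP (adjusted p = 0.277) and 2.11 ± 2.16 in AP against basal (adjusted p = 0.456). Blocked by sample number all 3 were called, at 4.32 ± 0.35 (adjusted p = 1.62e-07), 2.79 ± 0.31 (adjusted p = 9.91e-06) and 1.53 ± 0.35 (adjusted p = 0.00213). Without sample 1 and without the block, HSL against basal was called (3.76 ± 1.26, adjusted p = 0.0157). Without sample 1 the blocked values were 3.98 ± 0.47, 2.58 ± 0.44 and 1.40 ± 0.46, with adjusted p of 1.37e-05, 0.000375 and 0.0225.

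Wnt4 was the ligand that varied least between samples. It averaged 351 ± 76 CPM in HSL, 63.6 ± 29.1 CPM in AP and 12 ± 2.47 CPM in basal libraries (SD, n = 6 each). The range was 265 to 490 CPM in HSL (median 346), 38.8 to 120 CPM in AP (median 54.1) and 8.22 to 14.7 CPM in basal (median 12.5), so no 2 populations overlapped. The log2 fold change was 4.87 ± 0.27 in HSL against basal (edgeR adjusted p = 9.04e-11), 2.46 ± 0.24 in HSL against AP (adjusted p = 6.03e-07) and 2.40 ± 0.24 in AP against basal (adjusted p = 2.29e-07). All 3 were called under every alternative run. Per kilobase of exon, the mean level in HSL was 83.8 CPM for Wnt4 (median 82.5), 45 CPM for Tnfsf11 (median 1.07) and 263 CPM for Calca (median 6.86). By the mean Calca was the most abundant of these 3 ligand transcripts in HSL and by the median it was Wnt4, since sample 1 had 1560 CPM per kilobase of Calca.

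The sample with the most Tnfsf11 and Calca transcript had the least of the progesterone receptor. Pgr was lowest in sample 1 in all 3 populations, at 97.2 CPM in HSL, 15.5 CPM in AP and 20.3 CPM in basal, where the other 5 samples ran from 340 to 532, 46 to 132 and 26.5 to 39.3 CPM. The oestrogen receptor gene Esr1 was at 293 CPM in sample 1 HSL, within the range of 266 to 391 CPM of the other 5. In AP and basal, sample 1 was the lowest library in Esr1 too, at 45.8 and 13 CPM. The others ran from 55.6 to 121 CPM in AP and from 29.5 to 41.8 CPM in basal. Fkbp5, a chaperone gene induced by progesterone and glucocorticoids and named after its values were seen, was at 265 CPM in sample 1 HSL and at 16.8 to 24.7 CPM in the other 5. In AP it was at 117 CPM in sample 1 and at 56 to 136 CPM in the others. In basal libraries it was at 57.2 CPM in sample 1 and at 10.6 to 25.3 CPM in the others. Of the 8 listed genes of hormone receptors and cofactors, sample 1 HSL was highest in 1, Fkbp5, and lowest in 3. Sample 1 AP was highest in 0 and lowest in 6, and sample 1 basal was highest in 1, Fkbp5, and lowest in 5. Over all genes tested, sample 1 was highest in 30.3%, 30% and 29.4% and lowest in 26.6%, 27.9% and 25.7% in HSL, AP and basal. Prlr, the prolactin receptor gene, whose span is 13.8% shared as that of Fkbp5 is 12.9% shared, was at 1160 CPM in sample 1 HSL and 2480 to 3240 CPM in the others. Sample 1 was also lowest in Prlr in AP, at 120 CPM against 318 to 802 CPM, and in basal, at 25.2 CPM against 46.2 to 121 CPM. Over all samples the 8 genes of hormone receptors and cofactors were mostly HSL-high, with medians of 3.44 against basal and 2.15 against AP. Called higher were 6 in HSL than basal and 7 in HSL than AP, beside 27.8% and 19.8% of all genes, with none lower. Esr1, Pgr, Prlr, Foxa1 and Cited1 of this list are also among the hormone-sensing markers given above. Pgr rose by 3.56 ± 0.45 and Esr1 by 3.31 ± 0.28 in HSL against basal, Foxa1 by 4.95 ± 0.27 and Cited1, a cofactor of the oestrogen receptor, by 4.88 ± 0.54.

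Rspo1 was highest in AP libraries. It ranged over 0.22 to 75.2 CPM in HSL (median 1.52), 11 to 376 CPM in AP (median 24.4) and 1.9 to 12.2 CPM in basal libraries (median 3.49), and sample 1 held the top value each time. AP was above basal and above HSL in 6 of 6 samples, and HSL was above basal in 2 of 6. AP libraries were higher than basal libraries by 4.20 ± 1.29 (edgeR adjusted p = 0.0123), and by 3.04 ± 0.53 without sample 1 (adjusted p = 0.000168). HSL against AP was not called over all libraries (-2.57 ± 1.19, adjusted p = 0.0951). It was called once blocked by sample number (-3.55 ± 0.55, adjusted p = 0.000144) and without sample 1 (-3.94 ± 0.56, adjusted p = 2.92e-05). HSL against basal was 1.62 ± 1.16 (adjusted p = 0.245), and this direction turned to -0.45 ± 0.57 with the block (adjusted p = 0.501) and to -0.90 ± 0.52 without sample 1 (adjusted p = 0.137). With both it was -1.19 ± 0.46 (adjusted p = 0.0368). In sample 1 the HSL level of Rspo1 was 20% of the AP level, the highest of the 6 samples, and the median of 6 progenitor markers was 19.1% in the same pair of libraries, also the highest. Fibroblast markers summed to 40.8 to 112 CPM in HSL, 622 to 1590 CPM in AP and 695 to 1100 CPM in basal libraries, all 8 being detected, with Col3a1 at 516 CPM in AP and Dcn at 414 CPM in basal on average. Their part in the level of Rspo1 was not tested.

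RANK ran against its ligand, with the most transcript in basal libraries. Tnfrsf11a averaged 5.07 ± 4.06 CPM in HSL, 49.9 ± 9.28 CPM in AP and 129 ± 29.8 CPM in basal (SD, n = 6 each). Its range was 1.08 to 12.6 CPM in HSL (median 3.60), 40 to 63.3 CPM in AP (median 48.7) and 71.2 to 153 CPM in basal (median 140), and the populations did not overlap. HSL was lower than basal by -4.66 ± 0.43 (edgeR adjusted p = 4.48e-08), HSL lower than AP by -3.29 ± 0.41 (adjusted p = 5.81e-06) and AP lower than basal by -1.37 ± 0.37 (adjusted p = 0.00588). Sample 1 was the highest HSL library and the lowest basal library, and without it HSL against basal was -5.32 ± 0.34. The HSL level was 17.8% of the basal level in sample 1, the highest share of the 6 samples, whose lowest was 0.775%. In the same pair of libraries the 6 basal markers were at 0.484 to 3.65% of their basal level, and the part of basal cells in this value was not tested.

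Osteoprotegerin transcript was basal-high too. Tnfrsf11b averaged 3.60 ± 2.41 CPM in HSL, 1.45 ± 0.838 CPM in AP and 33.9 ± 20.2 CPM in basal (SD, n = 6 each). It ranged over 0.408 to 7.23 CPM in HSL (median 3.99), 0.0226 to 2.42 CPM in AP (median 1.56) and 18.2 to 71.5 CPM in basal (median 28.1), so basal libraries stood clear of the others, while HSL and AP overlapped. HSL was lower than basal by -3.23 ± 0.67 (edgeR adjusted p = 0.000435) and AP lower than basal by -4.54 ± 0.71 (adjusted p = 4.29e-05). HSL against AP was 1.31 ± 0.64 (adjusted p = 0.113), and it was called only on leaving out sample 5 (1.28 ± 0.43, adjusted p = 0.0344), whose AP library held 1 read. Per kilobase of exon the basal mean was 21.5 CPM for RANK and 12 CPM for osteoprotegerin. Fibroblast transcripts were present in basal and AP libraries as given above. Of the 8 fibroblast markers 5 were called higher and 1, Dcn, lower in AP than basal, beside 21.5% and 23.1% of all genes. The part of fibroblasts in the level of Tnfrsf11b was not tested.

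The counts of calls that follow are of the test without the block by sample number. Read against all genes, 4 of 6 members were called in HSL against basal, 2 higher and 2 lower, where 58.4% of the genes tested were called, 27.8% higher and 30.6% lower. In HSL against AP 2 members were called, Wnt4 higher and Tnfrsf11a lower, where 39.9% of genes were called, 19.8% higher and 20.1% lower. In AP against basal 4 members were called, 2 higher and 2 lower, where 44.7% of genes were called, 21.5% higher and 23.1% lower. Higher calls made up 49.6% of all calls in HSL against AP, and 35.6% when libraries were scaled to total counts, a shift that changed none of the members' calls. In AP against basal they made up 48.2%, and 57.6% with total counts. The libraries of 1 member higher (Wnt4) and 2 lower did not overlap in HSL against basal, as for 16.8% and 20.1% of genes. The same held for 1 higher and 1 lower in HSL against AP (9.56% and 11% of genes) and for 1 higher and 2 lower in AP against basal (11.5% and 14.4%). With 6 members, these counts are near the shares of all genes and are no result about the members. The block added calls of Calca in each comparison, of Tnfsf11 in HSL against AP and AP against basal, and of Rspo1 in HSL against AP. Calls of the blocked test were not set beside the shares of all genes under the block.

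**Figure D3:**
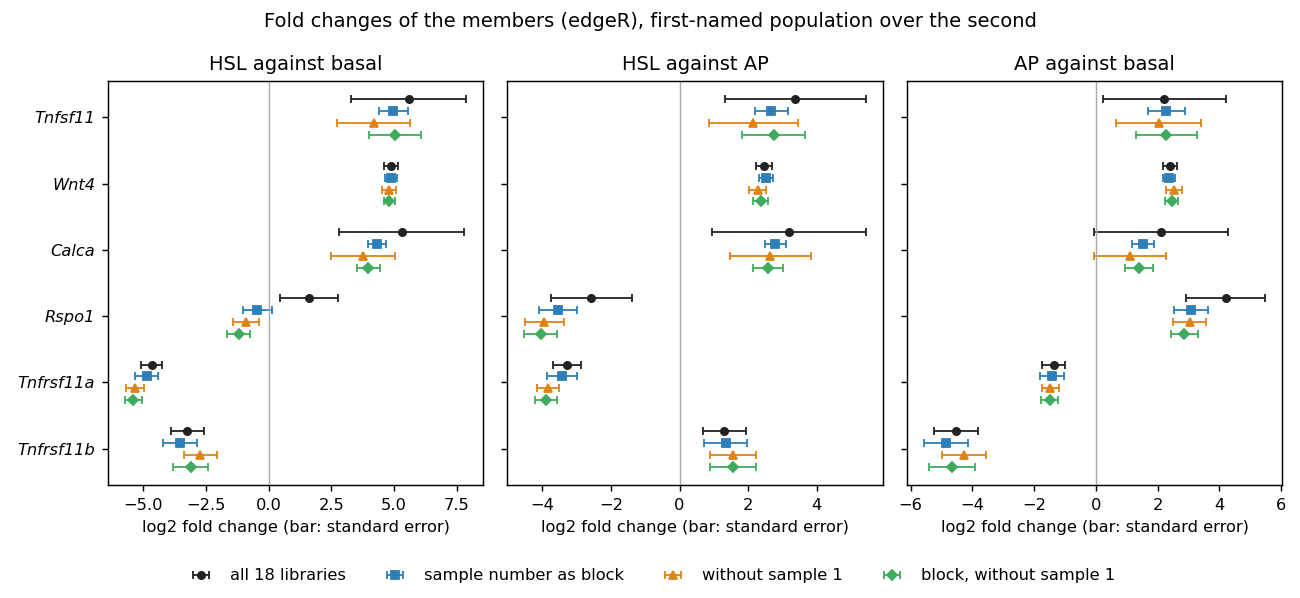
Log2 fold change of each member (points, bars are the standard error) in HSL against basal, HSL against AP and AP against basal, with 4 fits drawn as separate symbols. The values of Wnt4, Tnfrsf11a and Tnfrsf11b lie close together in the 4 fits, the blocked fit has the narrower bars for Tnfsf11 and Calca, and Rspo1 in HSL against basal changes sign.

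Adaptors and NF-kB genes downstream of RANK were called in both directions. Of 20 such genes, edgeR called 7 higher and 6 lower in HSL than basal (median -0.18), near the shares of all genes (27.8% and 30.6%). It called 1 higher and 10 lower in HSL than AP (median -0.41), beside 19.8% and 20.1% of all genes, and 7 higher and 2 lower in AP than basal (median 0.26), beside 21.5% and 23.1%. The medians over all genes were -0.064, -0.011 and -0.001. Elf5, the transcription factor of alveolar progenitors known to act downstream of RANK in the mouse, was at 23.9 ± 7.44 CPM in HSL, 190 ± 24.7 CPM in AP and 4.11 ± 1.57 CPM in basal (SD, n = 6 each). Traf5, an adaptor of TNF receptors, was basal-high, lower by -4.94 ± 0.28 in HSL and by -3.95 ± 0.26 in AP than in basal libraries (edgeR adjusted p = 9.85e-11 and 1.21e-09). Traf6, the adaptor most tied to RANK, was higher in AP than in basal by 0.84 ± 0.13. Id2, which mediates the response of mammary cells to RANK ligand in mice, was lower in HSL than in AP by -1.90 ± 0.21 (adjusted p = 2.05e-06). The NF-kB subunit genes Rela and Nfkb1 were lower in HSL than in AP by -0.93 ± 0.17 and -1.14 ± 0.23. Ccnd1, which encodes cyclin D1 and is named after its values were seen, was highest in sample 1 in each population. It stood there at 240 CPM in HSL, 653 CPM in AP and 105 CPM in basal, where the other samples had 117 to 142, 201 to 274 and 12.1 to 21.4 CPM. Its span is 17.7% shared with other genes.

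Other members of the TNF family were mixed. Of 16, 14 were tested, and 4 were higher and 6 lower in HSL than basal, beside 27.8% and 30.6% of all genes. In HSL against AP 3 were higher and 5 lower, beside 19.8% and 20.1%. In AP against basal 4 were higher and 5 lower, beside 21.5% and 23.1%. Tnfsf12 and Tnfsf13 are listed at 0, but other genes share their whole spans. Tnfsf10, which encodes TRAIL, a ligand that osteoprotegerin can also bind, averaged 3.29 ± 1.85 CPM in HSL, 32.9 ± 15.4 CPM in AP and 13.4 ± 2.07 CPM in basal (SD, n = 6 each). AP was higher than basal by 1.30 ± 0.38 (edgeR adjusted p = 0.00867) and HSL lower than AP by -3.32 ± 0.41 (adjusted p = 5.58e-06). The TRAIL receptor gene Tnfrsf10b differed less, at 5.76 ± 1.18, 5.34 ± 1 and 8.46 ± 1.86 CPM. Tnf itself averaged 5.38, 17.1 and 2.56 CPM and was higher in AP than in basal by 2.74 ± 0.41. Edar, the ectodysplasin receptor gene, was at most 0.145 CPM in HSL and 1.05 CPM in AP libraries and averaged 15 CPM in basal, and the death receptor gene Fas was lower in HSL than in basal by -3.79 ± 0.29.

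The receptors for R-spondins were basal-high, unlike the ligand. Lgr5 averaged 1.02 ± 0.887 CPM in HSL, 3.22 ± 1.31 CPM in AP and 368 ± 51.2 CPM in basal (SD, n = 6 each), lower by -8.43 ± 0.49 in HSL and -6.84 ± 0.45 in AP than in basal (edgeR adjusted p = 1.51e-10 and 1.19e-09). Lgr4 followed at 27.6 ± 4.53, 67.3 ± 10.1 and 248 ± 33.7 CPM, and all 3 of its comparisons were called. Lgr6 was at 23.4 ± 20.1 CPM in HSL, 290 ± 28.5 CPM in AP and 440 ± 164 CPM in basal, and AP against basal was not called (-0.60 ± 0.37, adjusted p = 0.207). AP libraries held the most Rspo1 together with Lgr6 and Lgr4 transcripts. The ubiquitin ligase genes Znrf3 and Rnf43 were lower in HSL than in basal by -1.95 ± 0.28 and -1.06 ± 0.14, and lower in AP than in basal by -1.32 ± 0.28 and -0.45 ± 0.14. All 5 tested genes of this list of 8 were lower in HSL than basal, beside 30.6% of all genes. Of the 5, 4 were lower in HSL than AP and 4 in AP than basal, beside 20.1% and 23.1% of all genes. Rspo2, Rspo3 and Rspo4 did not pass the filter, and their highest library had 0.113 CPM.

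**Figure D4:**
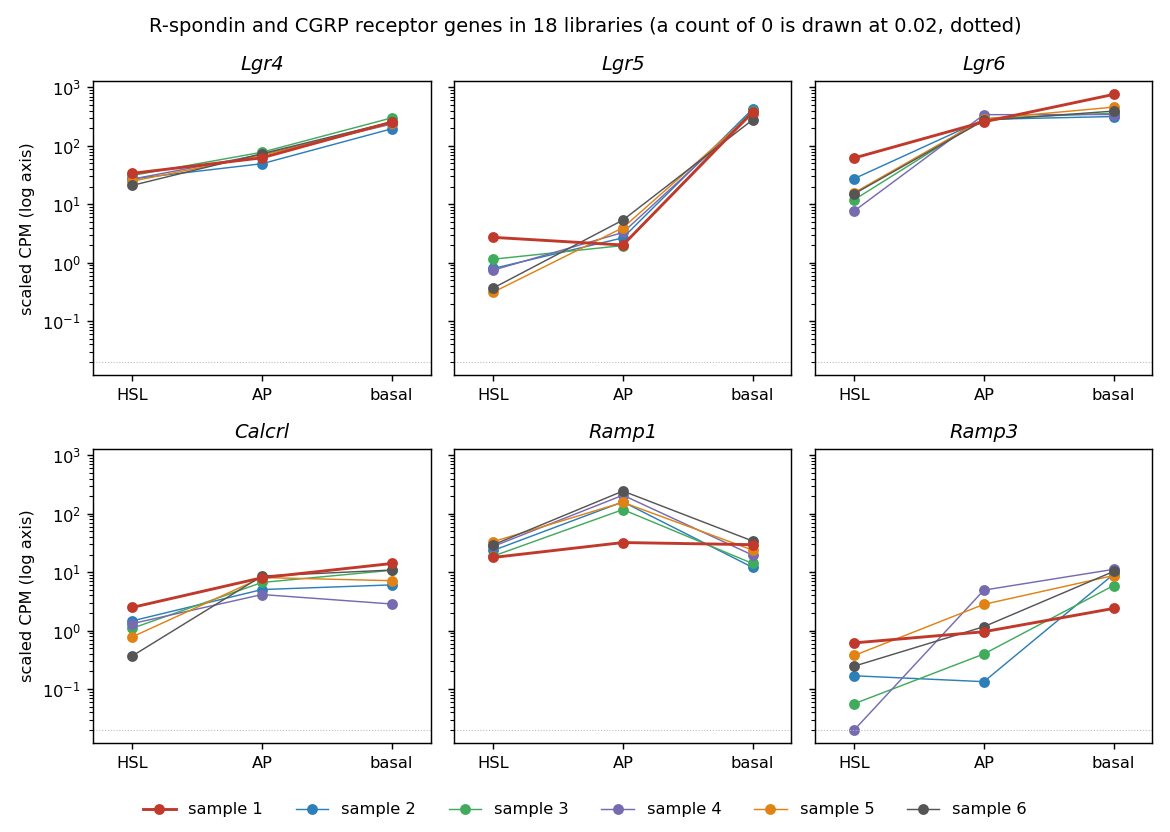
Scaled CPM (log axis) of the R-spondin receptor genes Lgr4, Lgr5 and Lgr6 and of the CGRP receptor genes Calcrl, Ramp1 and Ramp3 in the HSL, AP and basal library of each of 6 sample numbers, with counts of 0 drawn at 0.02. Lgr5 is at most 2.72 CPM in HSL and 5.38 CPM in AP and at 279 to 428 CPM in basal libraries, and Ramp1 is highest in AP in all samples.

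Many genes that receive Wnt signals were basal-high. Of 22 tested of 24, 4 were higher and 15 lower in HSL than basal (median -2.16), where 27.8% of all genes were higher and 30.6% lower. In HSL against AP 4 were higher and 10 lower (median -0.70), beside 19.8% and 20.1% of all genes, and in AP against basal 2 were higher and 14 lower (median -1.30), beside 21.5% and 23.1%. Nkd1, an inhibitor of Wnt signalling that Wnt activity induces, averaged 0.989 CPM in HSL, 0.993 CPM in AP and 141 CPM in basal. The frizzled receptor genes Fzd1 and Fzd3 were lower in HSL than in basal by -3.70 ± 0.29 and -2.78 ± 0.26, and the receptor gene Ror1 was lower in HSL than in AP by -3.50 ± 0.52. Fzd6 went the other way, higher by 1.24 ± 0.12 in HSL than in basal, and the transcription factor gene Tcf7l2 was highest in AP, at 54.2 ± 13.2, 311 ± 88.8 and 113 ± 27.9 CPM in HSL, AP and basal (SD, n = 6 each).

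Other Wnt ligands differed in where they were highest. Of the 18 ligand genes besides Wnt4, 9 were tested, and 2 were higher and 6 lower in HSL than basal, 3 higher and 4 lower in HSL than AP, and 2 higher and 4 lower in AP than basal, counts too small to read against the shares of all genes given above. Wnt5a and Wnt7b were called higher in HSL than in both other populations. Wnt5a, whose span is 14.6% shared, averaged 284 ± 119 CPM in HSL, 63.1 ± 46 CPM in AP and 80.2 ± 12.8 CPM in basal (SD, n = 6 each). Its sample 1 libraries were the lowest of HSL and AP, at 81.7 and 13.9 CPM, unlike those of Tnfsf11 and Calca. Wnt7b was high in both luminal populations, at 219 ± 37.7 CPM in HSL, 165 ± 25.7 CPM in AP and 14.7 ± 3.38 CPM in basal, and HSL was above AP by 0.41 ± 0.16 (edgeR adjusted p = 0.047). Wnt5b was AP-high, at 43.5 ± 39.4, 497 ± 48.1 and 118 ± 10.5 CPM. Wnt10a and Wnt11 were basal-high. Wnt10a was at 0.344 ± 0.294 CPM in HSL, 0.449 ± 0.439 CPM in AP and 160 ± 37.8 CPM in basal, and Wnt11 at 20.9 ± 10.8, 5.46 ± 2.02 and 217 ± 34.3 CPM.

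The receptor genes for the products of Calca were not HSL-high. CGRP acts through CALCRL with RAMP1, and calcitonin through CALCR, whose gene Calcr did not pass the filter and reached 0.453 CPM at most. Ramp1 averaged 25.2 ± 6.11 CPM in HSL, 153 ± 74.1 CPM in AP and 22.3 ± 8.67 CPM in basal (SD, n = 6 each). It was higher in AP than in basal by 2.79 ± 0.37 and lower in HSL than in AP by -2.61 ± 0.37 (edgeR adjusted p = 7.1e-06 and 2.52e-05). Its lowest AP library was that of sample 1, at 32.2 CPM, where the other 5 had 118 to 245 CPM. Calcrl was at 1.26 ± 0.727, 6.77 ± 1.82 and 8.63 ± 4.03 CPM in HSL, AP and basal, lower in HSL than in both. Ramp2 and Ramp3, which direct CALCRL to adrenomedullin, were basal-high at 12.7 ± 4.49 and 7.96 ± 3.26 CPM, but the span of Ramp2 is 43.2% shared. Crcp, a component of CGRP receptor signalling, was called in none of the 3 comparisons, at 26 ± 6.45, 22.9 ± 4.84 and 21.7 ± 3.71 CPM. Calcb, Adm2 and Calcr stayed under the filter, and Adm and Iapp are listed at 0 with their spans wholly shared. Endothelial cells are known to express Calcrl and Ramp2, and the 6 endothelial markers summed to 13 to 33.6 CPM in HSL, 19.9 to 66.2 CPM in AP and 51.8 to 182 CPM in basal libraries. Their part in the level of Calcrl and Ramp2 was not tested.

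Among 18 further genes of mammary paracrine signalling, 16 were tested. In HSL against basal 5 were higher and 8 lower, beside 27.8% and 30.6% of all genes. In HSL against AP 4 were higher and 8 lower, beside 19.8% and 20.1%. In AP against basal 5 were higher and 6 lower, beside 21.5% and 23.1%. Areg, which encodes amphiregulin, the ligand that carries the oestrogen signal in mouse ducts, is named after its values were seen. It averaged 1200 ± 382 CPM in HSL, 245 ± 178 CPM in AP and 39.2 ± 23.7 CPM in basal (SD, n = 6 each), and its sample 1 HSL library, at 1100 CPM, lay inside the range of the others. Its receptor gene Egfr was lower in HSL than in basal by -4.28 ± 0.39 and than in AP by -3.37 ± 0.38. Inhbb, an activin subunit gene, was highest in AP, at 136 ± 21.5, 241 ± 70.7 and 15.8 ± 5.89 CPM in HSL, AP and basal. The chemokine gene Cxcl12 was basal-high, at 10.2 ± 4.95 CPM in HSL, 15.1 ± 3.39 CPM in AP and 542 ± 140 CPM in basal. So was Adamts18, a matrix protease gene that in mice answers to Wnt4 in the basal layer, at 0.355 ± 0.324, 0.755 ± 0.637 and 122 ± 68 CPM. Fgfr2, whose span is 58.2% shared, was highest in HSL at 2010 ± 374 CPM, and Igfbp5 was lower in HSL than in AP by -4.78 ± 0.40.

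The genes whose pattern over the 18 libraries was most like that of each member were found by Pearson's r of log2(CPM + 0.5), given as a description, since libraries share samples and populations. Tnfsf11 and Calca were nearest to each other (r = 0.964), and next to both came the predicted gene Gm10032 (r = 0.951 with Tnfsf11 and 0.927 with Calca). Adra1a, an adrenergic receptor gene, was at 0.919 with Tnfsf11, and Thop1, a peptidase gene, at 0.899 with Calca. These rest on sample 1: over the 15 other libraries neither Calca nor Gm10032 was among the 3 nearest to Tnfsf11, which were Hist2h4 (0.940), Acsf2 (0.933) and Gpatch2 (0.930). For Calca they were then Adarb2 (0.896), Limch1 (0.848) and 1700067K01Rik (0.846). For Wnt4 the nearest were Sgsm3 (0.989), 9530014B07Rik (0.987) and the claudin gene Cldn6 (0.987). For Tnfrsf11a they were Pdlim3 (0.992), Erf (0.990) and 1700025G04Rik (0.988), and for Tnfrsf11b Hras (0.934), Prickle3 (0.932) and Ckap4 (0.931). For Rspo1 they were Gm11747 (0.938, span 53.4% shared), C1qtnf1 (0.936, span 26.5% shared) and Slfn9 (0.932), and without sample 1 none of these 3 remained, the nearest being Gng7 (0.957), Trim34a (0.952) and Rerg (0.945).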

How the data were processed

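Epithelial cells of 3 sorted populations from mouse mammary glands were profiled by RNA-seq with Smart-Seq v4 cDNA and Nextera XT libraries, which do not mark the strand, per the labels' protocols. The authors deposited whole-number gene counts and RPKM values, per the file headers, for 52636 identifiers a library on GRCm38, per the submitters' processing notes. No source used here gives the aligner or counter. The deposited RPKM values served only to check the files. Symbols came from GENCODE M21 (52489 matched, and the other 147, with at most 0.00677% of counts, were left out). File widths equal the whole genomic span for 85.6% of genes, so counts may include introns, and genes inside other genes tend to be listed at 0.

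Groups came from the titles. Counts were tested with edgeR 4.0.16 (robust glmQLFit and glmQLFTest, TMM, filterByExpr with a minimum count of 10) in R 4.3.3, with 1 mean per population over all 18 libraries and p adjusted over all genes tested. SE is the log2 fold change divided by the root of F. The deposited gene counts summed to between 26516293 and 91095830 a library. Intervals for a count of 0 use 3 counts and cover counting error only. The series names 6 mice, but no label ties a sample number to a mouse, so the p-values measure the spread between these samples. Deviations from the population mean correlated between libraries of the same number in all 18 pairs (r from 0.19 to 0.69), so the numbers were taken as pairs and the blocked test is given where it changed a call.

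Alternatives were total counts, DESeq2 1.42.0, limma-voom (limma 3.58.1), no filter, the block, the 2 populations alone, leaving out each sample, samples 1 to 3 or 4 to 6 alone, and the block without sample 1, the last chosen after the data were seen. The test was tested on simulated data. The planned correlation between ligands in HSL is not given, because sample 1 lies far apart and leaves 5 others, fewer than 6. Promoters are from RefSeq, and 5 of the 6 genes matched. Members and gene lists were chosen with earlier results of these data known. Named were the members, Pgr, Esr1, Tnfsf10, Tnfrsf10b, all R-spondin and calcitonin family genes, genes among the 4 smallest adjusted p of each other list and comparison, and the 2 most abundant markers of other cell types with any at 0. The 3 genes nearest to each member were also named. Not every gene so allowed is printed, and others are marked in the text.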

Additional observations from a re-analysis of the deposited data

Results flagged for a closer look

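The extreme library was compared with its neighbour in 24 groups of 6 libraries (the 6 members, Pgr and Esr1 in each population). The gap between them, as a share of the whole range, was set against Dixon's 95% critical value. Chance passes this value in about 1 in 20 groups where values are normally distributed. Levels were CPM without a log scale, so this rate need not hold here. A library stood out in 12 groups, all of members, and in 11 of them it was sample 1. Because the 3 libraries of sample 1 are alike, these are not independent. For Tnfsf11 the share was 0.990 in HSL, 0.973 in AP and 0.961 in basal, with sample 1 highest. For Calca it was 0.995 in HSL, 0.993 in AP and 0.980 in basal, with sample 1 highest. For Rspo1 it was 0.951 in HSL, 0.911 in AP and 0.801 in basal, again with sample 1 highest. In basal libraries sample 1 was the lowest in Tnfrsf11a (0.649) and the highest in Tnfrsf11b (0.635). The one case outside sample 1 was Wnt4 in AP, where sample 2 was highest (0.655) at 120 CPM against 38.8 to 66.8 CPM in the other 5.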

How the results depend on the processing

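Wnt4 in 3 comparisons and Tnfrsf11b in both against basal kept direction and call under each alternative run, and Tnfrsf11a in 3 did so except that AP against basal was not called with samples 1 to 3 alone (-1.15). With samples 1 to 3 alone 5674 genes were called in HSL against basal, 1491 in HSL against AP and 3718 in AP against basal, against 9621, 6571 and 7356 over all libraries, and Tnfsf11 in HSL against basal (5.65) and Rspo1 in AP against basal (4.70) were not called. Fewer libraries enter that test. With the replicate block, Tnfsf11 was called in HSL against AP (2.67) and AP against basal (2.28), Calca in HSL against basal (4.32), HSL against AP (2.79) and AP against basal (1.53), and Rspo1 in HSL against AP (-3.55), while Rspo1 in HSL against basal turned to -0.45. The block changed no other call of a member. With the block and without sample 1 the values were 2.75 for Tnfsf11 in HSL against AP, 3.98, 2.58 and 1.40 for Calca in the same order as above, -4.05 for Rspo1 in HSL against AP, and -1.19 for Rspo1 in HSL against basal, which was called. Leaving out each sample in turn gave 4.19 to 5.70 for Tnfsf11, 3.76 to 5.39 for Calca (called without sample 1) and -0.90 to 1.84 for Rspo1 in HSL against basal, and -3.94 to -2.51 for Rspo1 and 1.16 to 1.56 for Tnfrsf11b in HSL against AP. Limma-voom did not call Tnfsf11 in HSL against basal (5.79), turned Rspo1 there to -0.49 and called Rspo1 in HSL against AP (-3.75). Without the filter Tnfsf11 in HSL against basal was not called (5.67). With samples 4 to 6 alone Rspo1 was -0.86 in HSL against basal and -3.81, called, in HSL against AP. The causes of these changes were not tested. DESeq2 gave no adjusted p for Tnfsf11, Rspo1 and Calca in any comparison. Counts of called genes in the pathway lists moved by over 1.5 times in 12 of 24 with samples 1 to 3 alone, in 2 on leaving out a sample, and in 1 each with limma-voom, with samples 4 to 6 alone and with the block without sample 1. With no read of Tnfsf11 in 5 AP and basal libraries, differences under the limits of 3 counts were not detectable there.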
